A study of Homo sapiens with 2 samples.

Results

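The cells described here carried transcripts of the late cell cycle but no detected transcript of PIF1. They were taken from single-cell transcriptomes of WaGa, an established human Merkel cell carcinoma line that is neuroendocrine in character and grows in suspension. A cell was a member when HIST1H4C was below 50 counts per 10000 counts of the cell, at least 5 of the 8 genes CCNB1, CCNB2, CDC20, PLK1, AURKA, ASPM, CENPE and HMMR were above 0, and PIF1 was 0. This held for 834 of 10816 cells, 433 of 4137 in the untreated library and 401 of 6679 in the domatinostat library. They are called PIF1-negative cells below, and the 1021 cells that met the other criteria with PIF1 above 0 are called PIF1-positive cells (408 untreated, 613 domatinostat). The members were chosen by the measured values of these 10 genes, so their levels in the members describe the choice and are not findings.

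There were 2 libraries, 1 per condition, both of the same line cultured in RPMI medium. Libraries were prepared on the Chromium platform of 10x Genomics (3′, v2.0) and sequenced on an Illumina HiSeq 4000, and each captured molecule carries a unique molecular identifier (UMI). The control was labelled as having no treatment, and the other library as treated with domatinostat, an inhibitor of class I histone deacetylases that was dissolved in DMSO. Neither its dose nor the time of treatment was given, nor whether the control received the solvent. With 1 library per condition there is no replicate and no test between conditions or between groups of cells. Intervals are 95% exact (Clopper-Pearson) and cover counting error only. Cells were assigned to a library by the treatment word in the cell name, and nothing else in the table ties them to it. A total of 48 cell barcodes occurred in both libraries, of which 1 belonged to a PIF1-negative cell in each library.

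Before division, cells accumulate cyclin B1 and cyclin B2, which activate the kinase CDK1 and drive entry into mitosis, while the replication-dependent histones made during DNA synthesis, HIST1H4C among them, are switched off. Many genes of this late programme share a promoter element, the cell cycle genes homology region (CHR), which is bound by MuvB complexes that repress it early in the cycle and activate it late, the latter with B-MYB and FOXM1. Many genes of the preceding G1/S transition carry E2F sites. PIF1 is a DNA helicase of the nucleus and mitochondria whose transcript also varies through the cell cycle.

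The promoters of several genes that chose the cells, and of PIF1, whose absence completed the choice, held the same short element close to the start of transcription. The sequences below are the 100 bases before the RefSeq start in GRCh38.p14, written 5′ to 3′ on the gene's own strand, with the CHR letters TTTGAA or TTCGAA in capitals, read on either strand (TTTGAA is TTCAAA on the other). The windows are CCNB2 at chr15:59105046-59105145, plus strand, HMMR at chr5:163460532-163460631, plus strand, PLK1 at chr16:23678789-23678888, plus strand, CDC20 at chr1:43358881-43358980, plus strand and PIF1 at chr15:64825648-64825747, minus strand. The remaining 2 windows belong to genes outside the rule that stood among the highest in the PIF1-negative cells. They are DEPDC1 at chr1:68497083-68497182, minus strand and KIF4A at chrX:70290004-70290103, plus strand. Only windows with a match are printed. Those of ARL6IP1, NEK2, NUF2, PTTG1 and G2E3, also among the highest, held no CHR letters. Neither did those of the rule genes CCNB1, ASPM and CENPE, nor that of CDK1.
CCNB2: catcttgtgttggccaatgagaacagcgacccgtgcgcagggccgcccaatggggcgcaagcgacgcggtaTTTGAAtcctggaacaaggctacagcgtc
HMMR: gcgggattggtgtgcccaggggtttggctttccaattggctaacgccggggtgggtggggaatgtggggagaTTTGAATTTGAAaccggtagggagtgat
PLK1: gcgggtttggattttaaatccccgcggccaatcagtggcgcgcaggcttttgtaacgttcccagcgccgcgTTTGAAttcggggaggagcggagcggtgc
CDC20: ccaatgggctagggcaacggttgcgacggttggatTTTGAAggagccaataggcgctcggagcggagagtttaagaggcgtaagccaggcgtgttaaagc
PIF1: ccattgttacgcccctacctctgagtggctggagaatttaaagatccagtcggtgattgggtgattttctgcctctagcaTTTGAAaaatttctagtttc
DEPDC1: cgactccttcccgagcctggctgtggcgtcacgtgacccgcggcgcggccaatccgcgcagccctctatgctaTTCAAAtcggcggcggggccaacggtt
KIF4A: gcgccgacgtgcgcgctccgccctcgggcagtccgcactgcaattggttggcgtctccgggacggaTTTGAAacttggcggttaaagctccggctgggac

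Within 250 bases before the start, 5 of the 7 rule genes with a RefSeq entry held the CHR letters (CCNB2, CDC20, PLK1, ASPM and HMMR), against 14.6% of all 27305 promoters. Of the 24 spindle genes with an entry 11 held them, as did 6 of 14 mitotic kinesins, 2 of 44 genes of replication licensing and 1 of 10 genes of the G1/S list. Among the 12 highest genes they were in 3 of the 10 with an entry, and among kinetochore genes in 6 of 29. For the E2F letters TTGGCGC, the variant TTCCCGC, the variant TTGCCGC and the variant TTCGCGC, searched on both strands, the share was 11.0% of all promoters, 18 of 44 licensing genes and 5 of 10 G1/S genes, and also 11 of 29 kinetochore genes and 5 of 17 mitotic cyclins, kinases and phosphatases. Both of the following carry them in capitals and belong to genes that were low in the PIF1-negative cells. They are TCF19 at chr6:31158489-31158588, plus strand and MCM3 at chr6:52284743-52284842, minus strand. The windows of CCNE1, CLSPN and SLBP, also low there, held no E2F letters and are not printed. Of the 12 lowest genes, 9 had an entry, and 2 of these (TCF19 and SERTAD4) held E2F letters within the 250 bases. A match of letters is a description of the window and shows no binding.
TCF19: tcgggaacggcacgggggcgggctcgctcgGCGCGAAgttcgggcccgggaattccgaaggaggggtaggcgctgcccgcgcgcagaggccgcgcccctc
MCM3: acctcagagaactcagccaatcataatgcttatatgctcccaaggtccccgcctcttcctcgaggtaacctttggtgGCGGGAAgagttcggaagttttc

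The share of PIF1-negative cells was 10.5% of the untreated library (9.55 to 11.4%) and 6.00% of the domatinostat library (5.45 to 6.60%). PIF1-positive cells took 9.86% and 9.18% of the same libraries, and cells with HIST1H4C at 50 or more per 10000 took 11.8% and 32.4%. The remaining cells, with low HIST1H4C and fewer than 5 of the 8 genes, made up 67.9% and 52.4%. The smaller share of PIF1-negative cells under domatinostat thus stood beside a larger share of cells rich in the replication-dependent histone.

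Depth differed along with these shares. The untreated PIF1-negative cells held a median of 13330 UMIs (2437 to 24889) and 3692 genes, and those under domatinostat held 7893 UMIs (3053 to 24626) and 2739 genes. The other cells of the 2 libraries held medians of 10941 and 8612 UMIs, so the members were deeper than the rest without treatment and not under domatinostat. Mitochondrially encoded transcripts took 4.34% and 4.57% of the members' UMIs, against 5.19% and 4.75% of the other cells' UMIs.

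Depth was unevenly spread among the members. Counted in steps of 2000 UMIs, untreated members peaked with 58 cells at 6000 to 8000 UMIs and again with 71 cells in each of the steps from 14000 to 18000, with 26 cells in the dip at 8000 to 10000. Domatinostat members peaked with 121 cells at 6000 to 8000, and the next 3 steps held 43, 50 and 43 cells. Below 9000 UMIs, a split set after these counts were seen, lay 122 of 433 untreated members (28.2%, 24.0 to 32.7) and 226 of 401 domatinostat members (56.4%, 51.3 to 61.3). For PIF1-positive cells the shares were 9.80% and 20.9%.

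**Figure D1:**
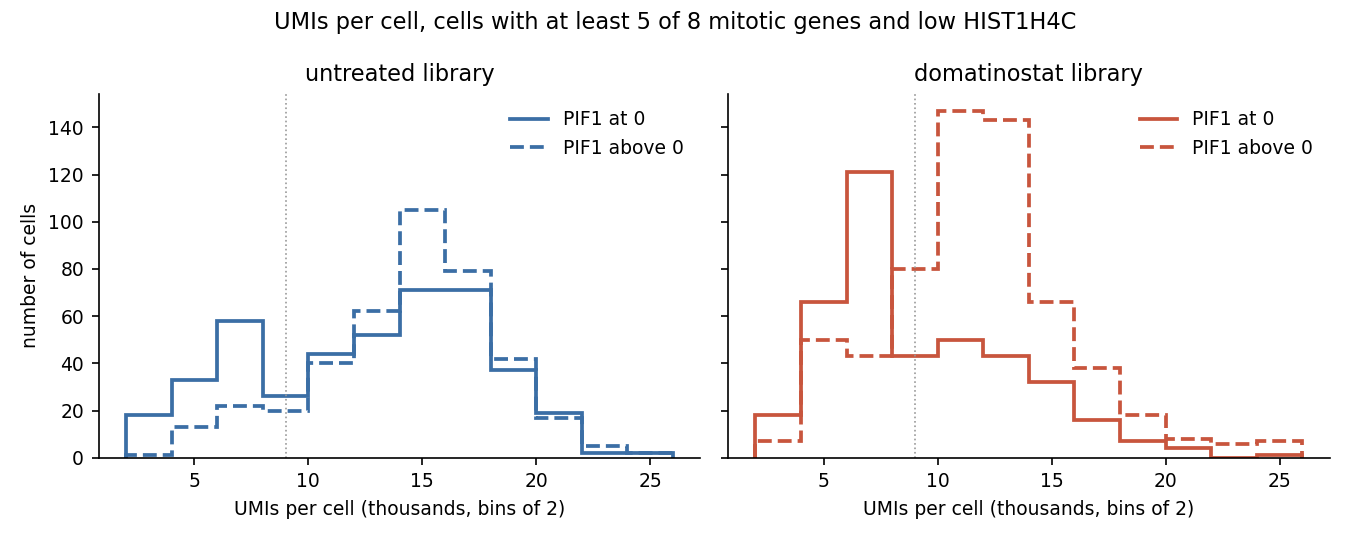
Number of cells against UMIs per cell, in steps of 2000 UMIs, for cells with at least 5 of the 8 genes and low HIST1H4C in each library, split by whether PIF1 was 0 (solid) or above 0 (dashed). The dotted line marks 9000 UMIs; 122 of 433 untreated and 226 of 401 domatinostat members lie below it.

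A PIF1 count of 0 was reached more often in shallow cells. Among untreated cells meeting the other criteria, PIF1 was 0 in 89.7% of those below 5000 UMIs (35 of 39 cells) and in 40.4 to 49.1% from 10000 UMIs up. Under domatinostat it was 0 in 62.3% below 5000 UMIs and in 68.6% from 5000 to 7500, and in 19.2 to 30.6% from 10000 up. Over all depths 51.5% of 841 untreated cells and 39.5% of 1014 domatinostat cells were at 0. The share at 0 was therefore lower under domatinostat in each of the 5 depth steps from 10000 UMIs up, though the intervals overlapped in all of these but the first (39.7 to 58.6% and 19.7 to 30.9%). As a background, PIF1 was above 0 in 1.86% of 1400 untreated and 1.98% of 1715 domatinostat cells in which none of the 8 genes was detected, at median depths of 8972 and 7046 UMIs.

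**Figure D2:**
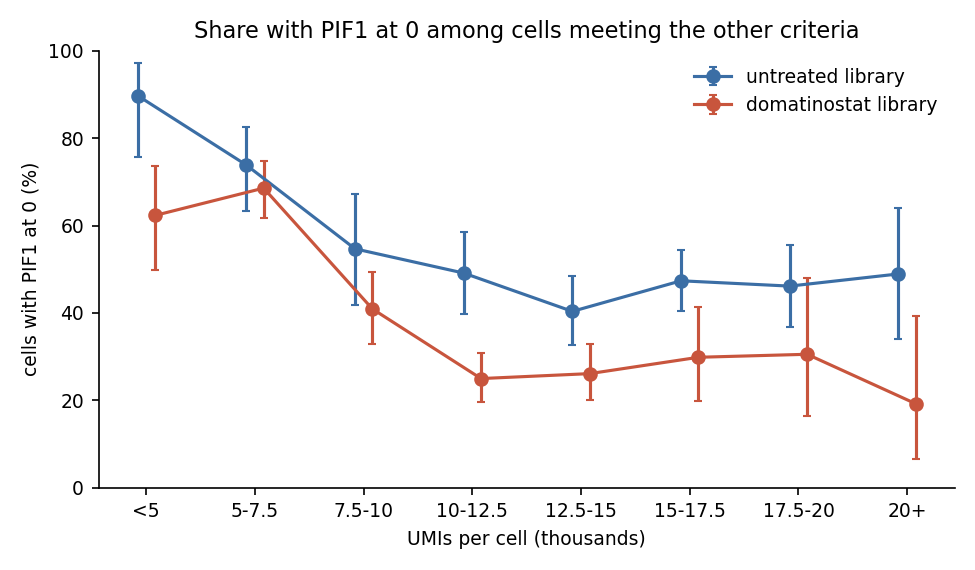
Share of cells with PIF1 at 0 (%, with 95% exact intervals) among cells meeting the other criteria, by UMIs per cell, in the untreated (blue) and domatinostat (red) library. The share lies at 40.4 to 49.1% of untreated and 19.2 to 30.6% of domatinostat cells from 10000 UMIs up.

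Equal depth gave a different set of members. After every cell was thinned to 4351 UMIs, with 245 untreated and 667 domatinostat cells too shallow to keep, the rule took 427 untreated and 389 domatinostat cells. Of these, 281 and 249 had been members at full depth, and 146 and 138 had PIF1 transcripts that were lost in thinning. A count of 0 for PIF1 in a shallow cell thus does not show that the gene was silent there.

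On the members' side of each limit, the values were as follows. Cells with PIF1 at 0 and 5 of the 8 genes (63 untreated, 94 domatinostat) held CCNB1 at 418 and 326 CPM (UMIs of the gene per 1000000 UMIs summed over the cells), against 136 and 145 CPM in cells with 4 of the 8 (74 and 99). The limit on HIST1H4C lay in a sparse range: 7 untreated and 3 domatinostat members stood at 40 to 50 per 10000, and 3 and 6 cells stood just outside at 50 to 60, while 407 and 346 members were below 10. With exactly 1 PIF1 UMI there were 196 and 177 cells, in which CDK1 stood at 229 and 314 CPM against 126 and 176 CPM in the members.

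The 8 genes and HIST1H4C describe the choice. CCNB1, the gene of cyclin B1, ranged over untreated members from 0 to 32.8 counts per 10000 with a median of 6.21, and over domatinostat members from 0 to 22.6 with a median of 4.34. CCNB2, the gene of cyclin B2, ranged from 0 to 21.9 (median 5.27) and from 0 to 14.4 (median 3.98). CENPE, a kinesin motor of the kinetochore, ranged from 0 to 15.1 (median 1.53) and from 0 to 19.7 (median 2.03). The cells overlapped widely between libraries, with lower medians under domatinostat for both cyclins and a higher one for CENPE. HMMR, a spindle-associated protein, ranged from 0 to 12.3 (median 1.61) and from 0 to 9.69 (median 1.39). HIST1H4C had medians of 1.25 and 4.51 per 10000.

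Summed over the members, CCNB1 was at 632 and 464 CPM (121 and 111 in other cells), CCNB2 at 546 and 421 (115 and 109), CDC20, an activator of the anaphase-promoting complex, at 262 and 248 (61.5 and 74.5), and PLK1, a mitotic kinase, at 122 and 119 (44.7 and 60.7). AURKA, a spindle pole kinase, stood at 349 and 341 CPM (114 and 154), ASPM, a spindle pole protein, at 273 and 299 (78.2 and 122), CENPE at 198 and 243 (65.2 and 97.5) and HMMR at 188 and 148 (49.2 and 49.9). All 4 genes that mark the label G2 are in the rule, so they give it no independent check, and DNA content was not measured. Genes usually placed in mitosis were high as well: the set PTTG1, CDC20, PLK1, CCNF, KIF20A, CENPA, AURKA and PIF1 summed to 2519.8 CPM without treatment (879 in other cells) and 2235 CPM with it (993), with PIF1 at 0. CDC20, PLK1, AURKA and PIF1 of this set are rule genes as well, so its sum is a description too.

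The cells carried markers of the labelled tumour type, while the line itself rests on the label. All 6 Merkel cell carcinoma markers were detected in them, summing to 1412 and 1567 CPM against 1690.4 and 2081 CPM in other cells. No UMI of 5 T cell markers was found, and B cell, myeloid, melanocyte and erythroid sets summed to between 0.808 and 4.74 CPM. The keratinocyte set summed to 331 and 346 CPM (413 and 359.7 in other cells) with KRT14, KRT1 and DSG3 at 0, and the endothelial set to 7.30 and 4.85 CPM (17.3 and 10.2) with VWF, CDH5 and KDR at 0. The fibroblast set was higher in members, at 54.9 against 25.8 CPM and 43.4 against 16.3 CPM, through DCN and COL1A1 alone, with COL1A2, COL3A1, LUM and PDGFRB at 0. It stood at 53.1 and 40.3 CPM in PIF1-positive cells too, and its part in the results was not tested.

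Set against all other cells of the same library, the PIF1-negative cells were high in genes of the spindle, the chromosomal passenger complex and mitotic kinesins, and low in genes of G1/S, replication and clustered histones. Among 11608 genes with at least 100 UMIs over the untreated pools, 310 were at least 2-fold higher in the members (2.67%) and 902 at least 2-fold lower (7.77%). Among 11614 such genes under domatinostat, 202 were higher (1.74%) and 706 lower (6.08%). In both libraries at once, 95 of 11255 genes were higher (0.844%) and 389 lower (3.46%). Rule genes were kept in these counts. Since the same cells chosen for 10 cell cycle genes are compared with the rest, genes that move with the cell cycle differ by construction, and these values are a description.

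Cyclins, kinases and phosphatases of mitosis were higher in most cases. Of 22 measured beyond the rule genes, 10 were at least 2-fold higher and 1 lower without treatment (median log2 ratio 0.81), and 3 were higher and 0 lower under domatinostat (0.42), beside a median over all genes of 0.02 in each library. NEK2, a centrosomal kinase, stood at 84.8 CPM in untreated members and 21.7 CPM in other cells, a ratio of 3.91 (3.49 to 4.38), and under domatinostat at 76.0 and 24.3 CPM, a ratio of 3.13 (2.74 to 3.56). BUB1, a kinase of the spindle checkpoint, had ratios of 3.43 and 2.34. CDC25B and CDC25C, phosphatases that activate CDK1, had ratios of 2.45 and 2.64 without treatment and 2.02 and 1.99 with it.

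CDK1 itself, the partner of the B cyclins, was at the level of other cells. It stood at 126 CPM in untreated members and 126 CPM in other cells (ratio 1.00), and at 176 and 172 CPM under domatinostat (1.02). Per cell, it ranged over untreated members from 0 to 17 UMIs and over domatinostat members from 0 to 13, with a median of 1 UMI in each. CCNA2, the gene of cyclin A2, had ratios of 2.46 and 1.47, and WEE1, which inhibits CDK1, had 1.23 and 0.869.

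Of 29 spindle and microtubule regulators, 16 were at least 2-fold higher and 0 lower without treatment (median log2 1.07), and 6 and 0 under domatinostat (0.66), with 29 and 27 of the 29 above a ratio of 1. DEPDC1, a DEP domain protein, stood at 144 and 30.6 CPM without treatment, a ratio of 4.72 (4.31 to 5.16), and at 140.4 and 40.2 CPM with it, a ratio of 3.49 (3.17 to 3.84). ARL6IP1, an endoplasmic reticulum membrane protein placed in the spindle list, stood at 501 and 142 CPM, a ratio of 3.53 (3.37 to 3.69), and at 591 and 159.7 CPM, a ratio of 3.70 (3.53 to 3.88). ARL6IP1 was found in 93.3% of untreated and 93.5% of domatinostat members, against 46.4% and 52.4% of other cells, and after thinning in 79.2% and 84.8% against 28.9% and 36.9%.

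Of 13 mitotic kinesins, 6 and 3 were at least 2-fold higher and 0 lower (median log2 0.97 and 0.56). KIF2C, which depolymerises microtubules, had ratios of 3.25 and 2.14, KIF4A, a chromosome-bound motor, 3.14 and 2.65, and KIF2A, a depolymerising motor of non-dividing cells as well, 0.698 and 0.759. In the chromosomal passenger complex with the shugoshins, 4 and 2 of 7 genes were higher and 0 lower (1.36 and 0.63). BIRC5, the survivin subunit of that complex, stood at 460.0 CPM against 133 CPM without treatment (3.46) and at 436 against 185 CPM with it (2.35). CDCA8, the borealin subunit, had 3.08 and 2.06.

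Kinetochore genes were divided. Of 35, 6 were higher and 0 lower without treatment (median log2 0.39), and 2 higher and 1 lower under domatinostat (-0.02). NUF2, part of the NDC80 complex that holds microtubules, had ratios of 4.01 (3.78 to 4.26) and 2.48 (2.30 to 2.66), and CENPF 2.78 and 2.08. In the other direction DSN1, part of the MIS12 complex, had 0.588 and 0.468, and CENPU 0.742 and 0.793. Subunits of the same structure thus stood on both sides of the other cells' level.

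The anaphase-promoting complex and checkpoint list also held both directions, with 4 genes higher and 2 lower of 24 without treatment and 1 and 2 under domatinostat (0.44 and 0.15). PTTG1, the gene of securin, which restrains separase until anaphase, stood at 1562 CPM against 518 CPM (3.01, 2.94 to 3.09) and at 1314 against 493 CPM (2.67, 2.59 to 2.75). UBE2C, an E2 enzyme of the anaphase-promoting complex, had ratios of 2.59 and 1.79. FBXO5, the inhibitor of the complex in S and G2 phase, had 0.297 and 0.328, and ESPL1, the separase gene, had 0.294 and 0.352. Cytokinesis genes were higher in 4 of 13 without treatment and 1 of 13 with it (0.96 and 0.46), led by ECT2, an activator of RhoA at the cleavage furrow, at 3.11 and 2.40.

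Genes of the chromosome scaffold followed less. Of 19 in the list with condensins, topoisomerase II and Ki-67, 4 were higher and 1 lower without treatment (0.35) and 0 and 0 with it (0.04). TOP2A, the topoisomerase that untangles chromosomes, stood at 512 against 248 CPM (2.07) and 667 against 459 CPM (1.45). MKI67, which coats mitotic chromosomes, had 1.28 and 0.896. Among nuclear envelope genes, LMNA, the gene of lamins A and C, stood at 379.5 against 189 CPM and at 338 against 155 CPM.

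Further genes stood high outside the groups above. CEP70, a centrosomal protein and the high end of the centrosome list, had ratios of 3.35 and 3.90, AVIL, an actin-binding protein, 3.07 and 3.30, and G2E3, a ubiquitin ligase named for its G2/M expression, 3.25 and 2.62. PGM5 stood at 13.5 against 3.59 CPM (3.76, 2.80 to 5.01) and 11.9 against 1.91 CPM (6.20, 4.26 to 8.87), FAM122B had 3.37 and 3.85, and SH3BGR 3.14 and 3.54. CCNG2, an atypical cyclin in the list of CDK inhibitors and growth arrest, had 3.15 and 2.25.

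**Figure D3:**
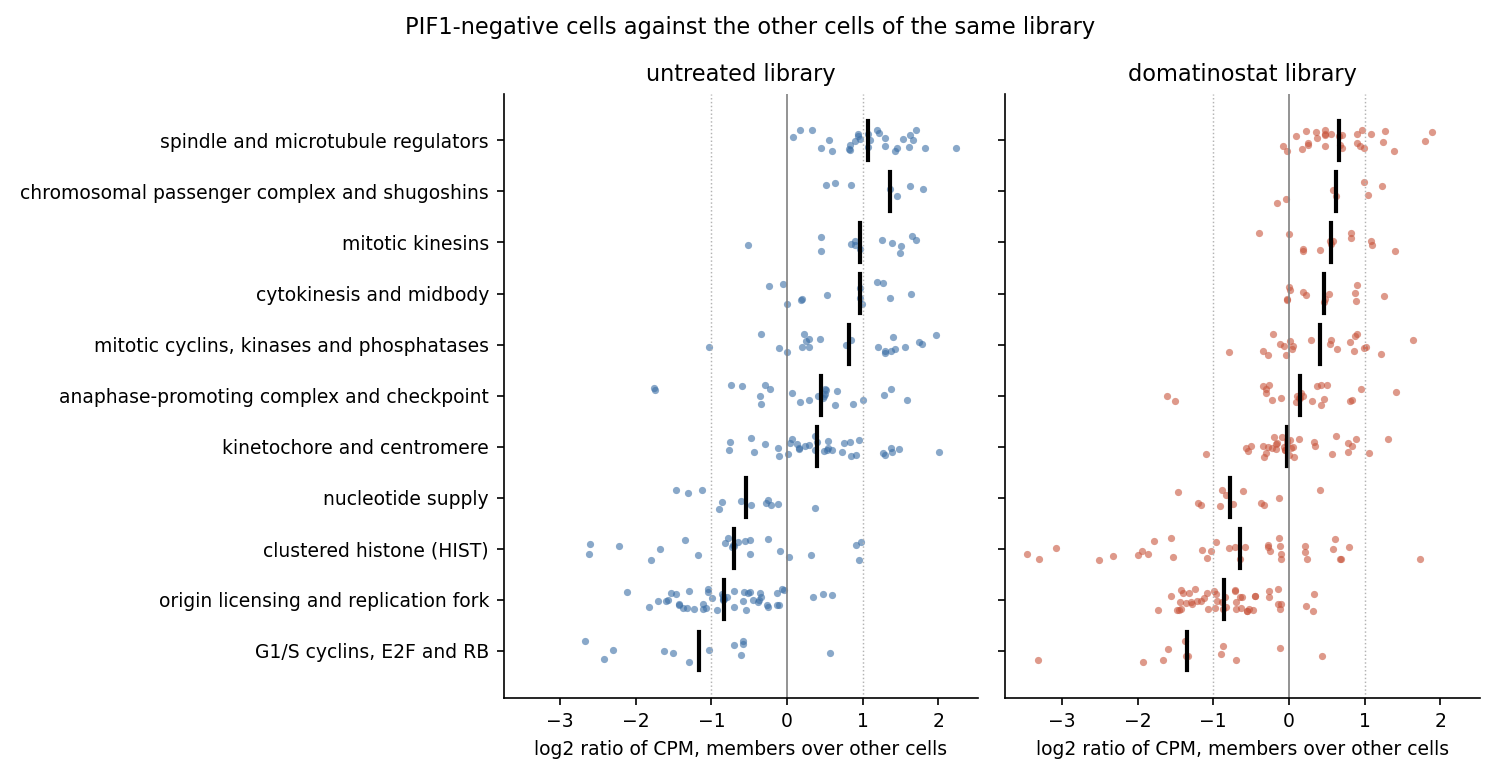
Log2 ratio of CPM in PIF1-negative cells over all other cells of the same library for each tested gene of 11 lists (points, rule genes left out), with the list median (black bar) and dotted lines at 2-fold. Spindle, passenger complex and kinesin medians lie above 0 and those of nucleotide supply, HIST genes, licensing and G1/S below 0 in both libraries.

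The groups below the other cells were those of G1/S and DNA synthesis. Of 12 genes in the G1/S list, 7 were at least 2-fold lower and 0 higher in each library (median log2 -1.16 and -1.35). CCNE1 and CCNE2, the genes of the E cyclins that start replication, had ratios of 0.157 and 0.187 without treatment and 0.263 and 0.315 with it. TCF19, whose promoter is printed above, stood at 11.1 against 59.1 CPM and at 12.7 against 55.8 CPM.

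Of 48 licensing and replication fork genes, 18 were at least 2-fold lower and 0 higher in each library (-0.84 and -0.86). CLSPN, a mediator of the replication checkpoint, had ratios of 0.283 and 0.365, and MCM3, a subunit of the replicative helicase, 0.346 and 0.358. DBF4, the activator of the CDC7 kinase, went the other way at 1.51 and 1.25. In the list of nucleotide supply, 3 of 12 were lower and 0 higher in each library (-0.54 and -0.78), among them TYMS, thymidylate synthase, at 0.362 and 0.363. FAM111B was among the lowest of all genes, at 0.156 and 0.172.

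Clustered histones beyond HIST1H4C were lower too, 7 of 23 without treatment and 14 of 35 with it, with 0 and 1 higher (-0.69 and -0.65). HIST1H1E and HIST1H1B, linker histones, had ratios of 0.164 and 0.163 without treatment and 0.119 and 0.101 under domatinostat. The 1 higher under domatinostat was HIST1H2BN, at 7.27 against 2.18 CPM (27 UMIs in members). SLBP, which binds the histone mRNA end, had 0.331 and 0.513, and H2AFX, the histone variant marking DNA breaks, had 0.269 and 0.378. Near-identical histone genes can share reads, so single members of the family are uncertain.

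Outside the cell cycle lists, the list of chaperones and unfolded protein response genes had median log2 ratios of 0.38 without treatment and 0.30 under domatinostat, with 1 of 22 at least 2-fold higher and 0 lower in each library. Over all genes tested, 2.67% and 1.74% were at least 2-fold higher. HSPA5, a chaperone of the endoplasmic reticulum, had ratios of 1.75 and 1.58. Of 85 ribosomal protein genes 0 were 2-fold apart in either library. Merkel and neuroendocrine identity genes were at least 2-fold lower in 2 and 1 of 21 (-0.13 and -0.14). Of all genes tested 7.77% and 6.08% were, so these counts do not set the list apart. CHGA, chromogranin A, had ratios of 0.682 and 0.643, SOX2 0.951 and 1.14, ATOH1 0.847 and 0.914, and KRT20 1.23 and 0.873. HLA-C, a class I antigen-presenting molecule with reads shared in part by related HLA genes, had 1.40 and 1.26. CDKN1A, the CDK inhibitor p21, had 0.493 and 0.635, ID1, a target of BMP signalling, 0.342 and 0.664, and CDKN1B, the inhibitor p27, had log2 ratios of 0.58 and 0.26. HDAC1 and HDAC2, targets of the inhibitor, had 1.07 and 1.01 without treatment and 1.06 and 0.992 with it. The regulators FOXM1 and MYBL2 had 1.59 and 0.521 without treatment and 1.24 and 0.474 with it.

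The closest comparison is with PIF1-positive cells, which met every other criterion but were not matched for the number of the 8 genes detected. Without treatment, PIF1 was 0 in 79.7% of such cells with 5 of the 8 genes and in 37.6% with all 8. Under domatinostat these shares were 70.7% and 26.6%. The part of this number in the ratios below was not tested. The groups were split by the PIF1 count of the same cells. Genes that move with PIF1 therefore differ by construction, and the values are a description. Here 0 of 7466 genes were at least 2-fold higher in both libraries in the PIF1-negative cells (0%), and 11 were at least 2-fold lower (0.147%). Within a library, 4 of 7987 genes were at least 2-fold higher (0.0501%) and 15 lower (0.188%) without treatment, and 9 of 7746 higher (0.116%) and 31 lower (0.4%) with it. Rule genes were kept in all of these counts, and PIF1, at 0 by the rule, is among the lower genes in each. CCNB1 and CCNB2 are among the genes that chose both groups of cells; as a description, CCNB1 stood at 632 and 619.9 CPM without treatment and 464 and 427 CPM with it, and CCNB2 had ratios of 1.04 and 1.17. CDK1, which is not a rule gene, stood at 126 CPM in untreated PIF1-negative cells and 306 CPM in PIF1-positive cells, a ratio of 0.414 (0.378 to 0.452). Under domatinostat it stood at 176 and 396 CPM, a ratio of 0.445 (0.409 to 0.485). After thinning, CDK1 was found in 34.6% against 66.1% of untreated cells and in 37.1% against 76.5% of domatinostat cells. Among cells of at least 9000 UMIs its ratio was 0.434 (0.395 to 0.476) without treatment and 0.552 (0.502 to 0.607) under domatinostat, the latter short of 2-fold.

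H2AFX stood first of the 8 low genes named by rank, at 20.1 against 76.3 CPM (0.263, 0.211 to 0.324) and 37.4 against 107 CPM (0.351, 0.291 to 0.421). The others were ARHGAP11B at 0.313 and 0.363, MXD3, a partner of MAX in the MYC network, at 0.400 and 0.321, HIST1H1C at 0.453 and 0.390, CDCA3 at 0.491 and 0.471, MKI67 at 0.528 and 0.489, and DBF4B, a second activator of CDC7, at 0.278 and 0.374. ARHGAP11B is a near copy of ARHGAP11A, and reads may be shared between them. Of the rule genes, PLK1 (0.584 and 0.532), CENPE (0.647 and 0.706), AURKA (0.725 and 0.691) and ASPM (0.738 and 0.673) were also lower, and TOP2A had 0.635 and 0.585. Medians of the mitotic lists were between -0.41 and -0.04 in log2, so the lower level ran through them with few genes past 2-fold.

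Genes higher in the PIF1-negative cells were fewer in kind and smaller in size. SLBP stood at 66.8 against 38.7 CPM (1.73, 1.46 to 2.05) and 87.8 against 53.4 CPM (1.64, 1.41 to 1.91). CCNE2 stood at 13.9 against 6.11 CPM (2.27, 1.51 to 3.48) and 27.2 against 15.6 CPM (1.74, 1.32 to 2.30). Both are low in PIF1-negative cells beside the other cells and lower still in PIF1-positive cells. IER2, an immediate early gene, had ratios of 1.62 and 1.98, EFNA1, an ephrin ligand, 1.87 and 1.85, YPEL5 1.65 and 1.64, SS18L1 1.67 and 1.95, HNRNPM, a splicing factor, 1.40 and 1.48, and GNL3, nucleostemin, 1.44 and 1.45. The licensing list had a median of 0.38 and 0.12 and the G1/S list of 0.47 and 0.34, where the mitotic lists were below 0.

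The groups differ in depth as well as in the number of the 8 genes. In cells of at least 9000 UMIs, H2AFX had ratios of 0.268 and 0.373, MXD3 0.411 and 0.319, MKI67 0.534 and 0.503, and SLBP 1.76 and 1.68. IER2 was closer to 1 there, at 1.37 and 1.66. Below 9000 UMIs CDK1 had ratios of 0.257 and 0.319, farther from 1 than among deep cells. Promoters of the 8 lowest and 8 highest genes differed in letters: CHR letters were in 4 of 8 (H2AFX, ARHGAP11B, CDK1 and MKI67) and 0 of 7 with an entry, and CCAAT, searched on both strands, in 7 of 8 and 0 of 7, against 33.0% of all promoters.

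**Figure D4:**
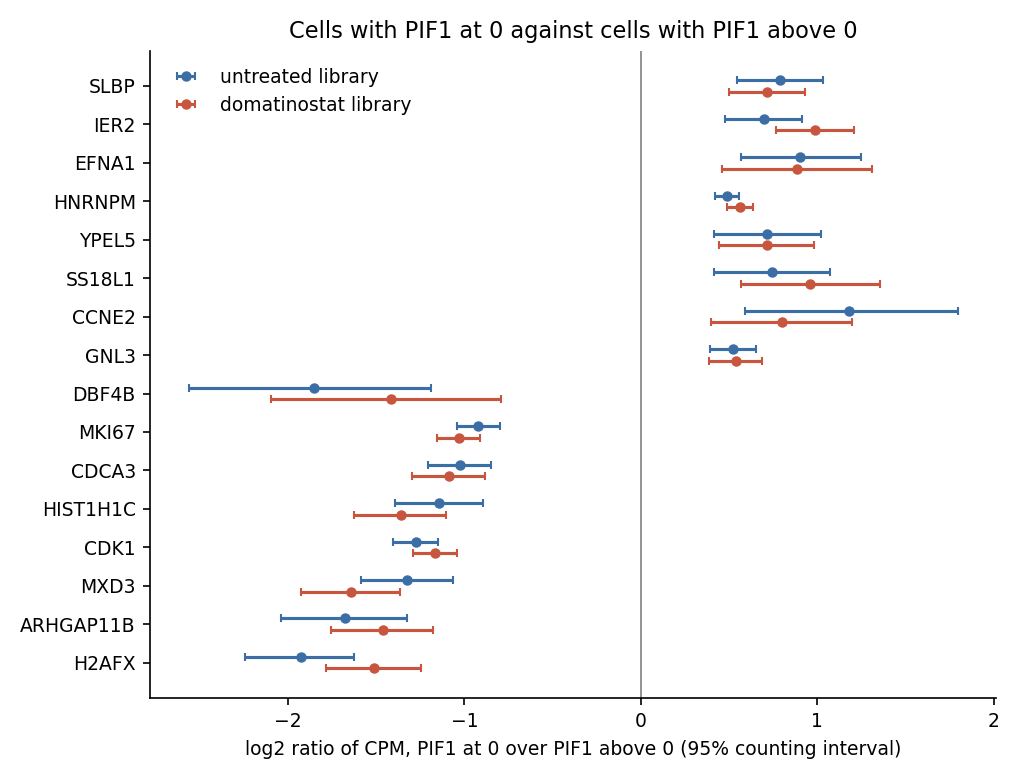
Log2 ratio of CPM in cells with PIF1 at 0 over cells with PIF1 above 0, with 95% counting intervals, for the 8 highest and 8 lowest genes in the untreated (blue) and domatinostat (red) library. H2AFX, ARHGAP11B and CDK1 lie below -1 in both libraries; SLBP and CCNE2 lie above 0.

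Among the members themselves, some levels were higher and others lower with the number of the 8 genes detected, a count that is part of the rule. CDK1 stood at 71.4, 81.9, 101 and 169.7 CPM in untreated cells with 5, 6, 7 and 8 of the genes, and at 111, 136, 197 and 217 CPM in domatinostat cells. UBE2C stood at 599, 844, 1162 and 1584 CPM and at 590.5, 941, 1293 and 1555 CPM. CCNE2 went the other way without treatment, at 29.6, 22.9, 13.9 and 6.63 CPM, and lay at 44.1, 25.8, 28.6 and 17.7 CPM with it. Median depth rose along the same order, from 7962 to 15841 UMIs and from 6439 to 11534 UMIs, and its part in these values was not tested. TOP2A stood at 181 CPM with 5 genes and 717 with 8 without treatment, and at 447 and 852 CPM with it. H2AFX stood at 36.6, 34.3, 13.9 and 13.7 CPM without treatment and at 48.4, 40.2, 41.4 and 26.9 CPM with it. MKI67 stood at 90.6, 85.7, 141 and 185 CPM, and under domatinostat at 165, 159, 168 and 209 CPM.

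In PIF1-positive cells CDK1 stood at 229 and 314 CPM with 1 PIF1 UMI and at 379.5 and 426 CPM with 2 or more. TOP2A stood at 748 and 1000.5 CPM and at 861 and 1190.2 CPM. H2AFX was lowest in PIF1-negative cells with 8 genes and stood at 76.3 and 107 CPM in PIF1-positive cells, so it did not continue in 1 direction. CCNB1 stood at 687 and 483 CPM with 1 PIF1 UMI and at 556 and 407 CPM with 2 or more. Of the 433 and 401 PIF1-negative cells, those with all 8 genes numbered 170 and 115.

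Shallow and deep members were 2-fold apart in few genes. Members below 9000 UMIs had 14 of 5658 genes at least 2-fold higher than deeper members (0.247%) and 44 lower (0.778%) without treatment, and 4 of 4526 genes higher (0.0884%) and 4 lower (0.0884%) under domatinostat. CDK1 was lower in the shallow members, at 93.1 against 132 CPM (0.708, 0.543 to 0.911) without treatment and 95.5 against 226 CPM (0.423, 0.347 to 0.513) with it. UBE2C had ratios of 0.734 and 0.598, CCNB1 1.21 and 1.23, and PTTG1 1.20 and 1.10. CCNB1 is a rule gene, and a shallow cell entered only if at least 5 of the 8 genes were detected in its fewer UMIs, so its value here is tied to the choice.

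Cell to cell, most genes measured had a variance close to their mean once the cells were thinned. In members thinned to 4351 UMIs (413 untreated and 375 domatinostat cells), the variance divided by the mean had a median of 1.04 in each library over 2930 and 2950 genes with a mean of at least 0.2 UMIs, where counting alone gives 1. It was at least 2 in 24 and 14 genes. At the same relative spread this quotient is larger for genes with more UMIs, so ranks by it favour them. A value near 1 in a gene of few UMIs therefore does not show little variation. MALAT1, a nuclear noncoding RNA, led at 19.6 and 25.6, and its unthinned level ran from 25.9 to 586 counts per 10000 (median 286) without treatment and from 36.8 to 725 (median 279.9) with it.

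The other genes named for their variation had these values. HLA-C, at a median of 18.2 and 26.4 counts per 10000, had a variance over mean of 4.97 and 3.83, and HLA-B had 3.76 and 3.72. HES6, a neurogenic transcription factor, had 5.02 and 2.63, ATF5, a stress-response transcription factor, 4.53 and 3.61, TUBA1A, an alpha tubulin, 3.58 and 3.08, and ID1 3.42 and 2.09. UBE2C had 3.19 and 3.53, PTMA, prothymosin alpha, 3.08 and 2.53, and HSP90AA1, a chaperone, 2.47 and 2.25.

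Between libraries, the PIF1-negative cells held few genes at least 2-fold apart: 31 of 7303 were higher under domatinostat (0.424%) and 75 lower (1.03%). In all other cells the counts were 67 (0.53%) and 740 (5.85%) of 12647, over pools with more UMIs in which rarer genes reach the minimum. The other cells were also mixed differently, with cells rich in HIST1H4C at 11.8% of the untreated and 32.4% of the domatinostat library. The part of this mix in the ratios of other cells was not tested. No list fixed for the cell cycle had a member 2-fold apart inside the members except 1 CDK inhibitor, CDKN1A, which was lower. Members of both libraries were chosen by the same cell cycle genes, and the other cells were not. Likeness of the members in such lists is therefore tied to the choice, and the medians that follow are a description. The 21 cyclins, kinases and phosphatases had a median log2 ratio of -0.03 inside the members and 0.40 in other cells, the 29 spindle genes 0.00 and 0.40, the 13 kinesins 0.01 and 0.54, and the passenger complex -0.08 and 0.48. The 19 genes of the condensin, topoisomerase II and Ki-67 list differed from these, with 0.30 inside and 0.41 in other cells and 15 of 19 above a ratio of 1 inside.

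Single genes ran both ways. CCNB1, CCNB2, HMMR, CENPE and ASPM are rule genes whose detection decided membership, so their ratios are a description. Members also differed in depth between the libraries, as given above. CCNB1 was lower under domatinostat inside the members (0.734, 0.693 to 0.778), as were CCNB2 (0.772) and HMMR (0.790), and NUF2 had 0.743. CENPE was higher (1.23, 1.12 to 1.34), and ASPM was at 1.10. TOP2A had 1.30 inside and 1.85 in other cells, MKI67 1.23 and 1.76, CCNA2 0.938 and 1.57, and FOXM1 1.15 and 1.48. CDK1 had 1.40 inside and 1.36 in other cells. Among members of at least 9000 UMIs its ratio was 1.72 (1.52 to 1.93), at 226 and 132 CPM, and below 9000 UMIs it was 1.03 (0.760 to 1.39), at 95.5 and 93.1 CPM.

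Genes higher under domatinostat inside the members did not belong to 1 list. SNHG9, a noncoding host gene of small nucleolar RNA, stood at 34.8 against 9.85 CPM (3.53, 2.55 to 4.94), was found in 25.7% of domatinostat and 11.1% of untreated members, and had a ratio of 1.62 in other cells. MYO15A, an unconventional myosin, stood at 129 against 59.1 CPM (2.18, 1.89 to 2.52) and had 1.52 in other cells. C19orf81 had 2.38 and 1.43, RPP21, a subunit of ribonuclease P, 2.28 and 1.82, MXD1 2.52 and 1.68, SYNC 2.56 and 1.13, PRPF8, a core splicing factor, 2.03 and 1.34, and NUP160, a nuclear pore scaffold protein, 2.10 and 1.19. SOX2, a transcription factor of Merkel cells, stood at 149 against 80.1 CPM (1.86, 1.64 to 2.11) and had 1.55 outside. CHERP stood at 61.4 against 30.6 CPM and had 1.14 in other cells. These genes were ranked by their ratios inside the members, and each had a smaller ratio above 1 in the other cells, a difference that was not tested.

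Some of these ratios were smaller among shallow members. Below 9000 UMIs CHERP had a ratio of 1.20 (0.829 to 1.77) against 2.14 among deeper members. SYNC had 1.87 (0.911 to 4.23) against 2.65, and C19orf81 1.84 (0.978 to 3.72) against 2.74. The intervals of SYNC and C19orf81 hold their deeper values, so no difference with depth is shown for them. SNHG9 had 3.87 (1.75 to 10.1) and 3.37 (2.32 to 4.96), and MYO15A 2.09 and 2.26, so these were as large in both depth ranges.

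The genes lower under domatinostat were lower in the other cells as well. TCEA3, an elongation factor of RNA polymerase II, stood at 4.31 against 26.8 CPM (0.161, 0.0895 to 0.270), and at 0.169 in other cells. SYNGR4, a synaptogyrin, stood at 32.3 against 137 CPM (0.235, 0.193 to 0.286), was found in 20.4% of domatinostat and 68.4% of untreated members, and had 0.171 outside. PPAP2C, a lipid phosphatase, stood at 110.5 against 259 CPM (0.427, 0.382 to 0.477) and had 0.489 outside. In deep members SYNGR4 had 0.249 and TCEA3 0.157, and in shallow ones 0.229 and 0.195, so the difference was about as large in both depth ranges.

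Others of this kind were S100A14 and S100A6, calcium-binding proteins, at 0.249 and 0.369 inside and 0.293 and 0.214 outside, GPSM3 at 0.227 and 0.272, BCL2L12, a BCL2 family relative, at 0.219 and 0.170, KLK11, a secreted protease, at 0.315 and 0.242, ANXA2, annexin A2, at 0.318 and 0.209, and CALCB, a calcitonin-related peptide, at 0.368 and 0.207. CDKN1A had 0.498 inside and 0.387 outside. ID1 had 0.713 (0.628 to 0.809) inside, at 98.6 against 138 CPM, and 0.368 outside. HSPB1, a small heat shock protein, had 0.452 and 0.406.

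Named genes of the inhibitor's targets, the tumour's identity and antigen presentation had these ratios. HDAC1 had 0.667 inside and 0.674 outside, and HDAC2 0.828 and 0.844. CHGA had 1.28 and 1.35, HLA-C 1.28 and 1.42, and H1F0, a replacement linker histone, 0.826 and 0.759. B2M, the class I light chain, was closer to 1 inside (0.870, 0.821 to 0.922) than outside (0.635, 0.621 to 0.648). KRT20, a keratin of Merkel cells, was lower inside (0.617, 0.567 to 0.670) than outside (0.870, 0.848 to 0.891).

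**Figure D5:**
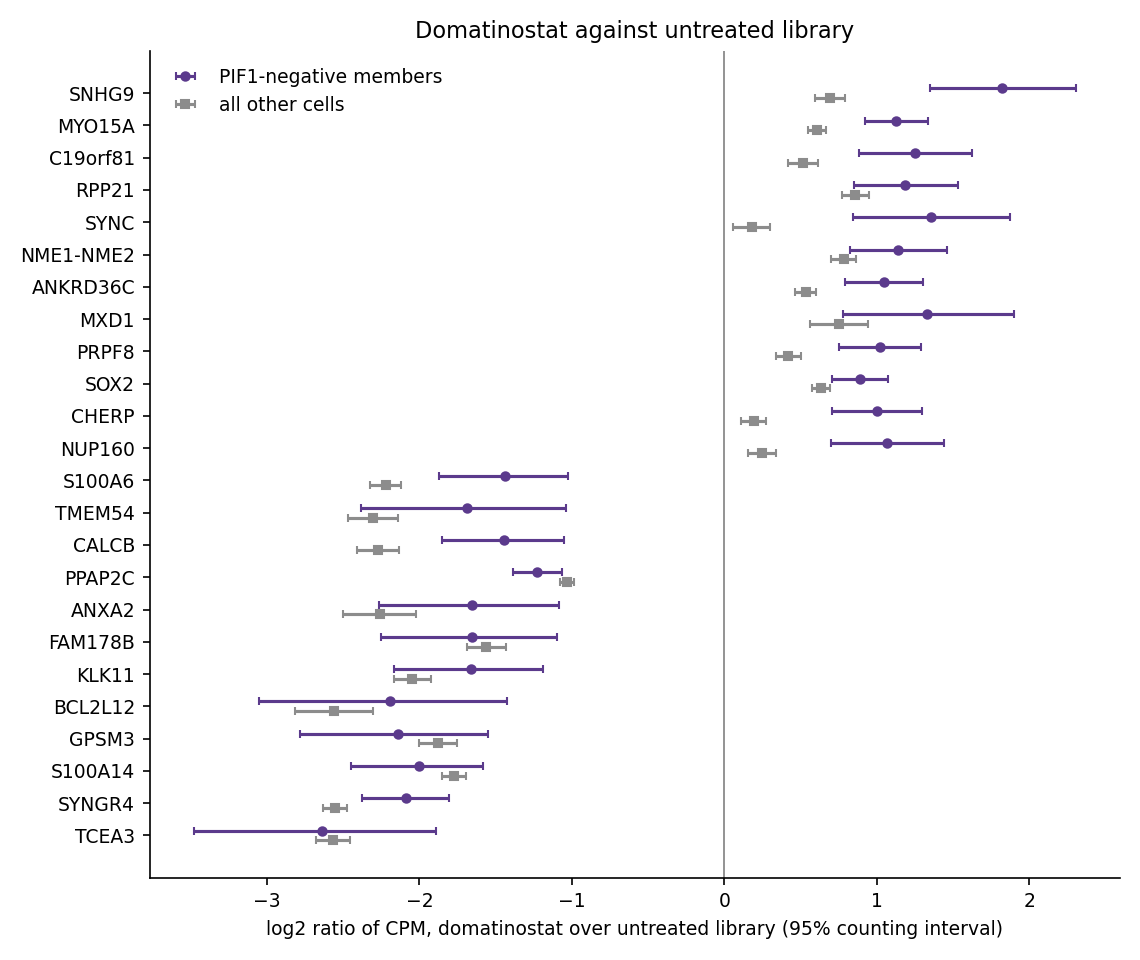
Log2 ratio of CPM in the domatinostat over the untreated library, with 95% counting intervals, for the 12 highest and 12 lowest genes inside the PIF1-negative members (purple circles) and the same genes in all other cells (grey squares). All 24 genes have the same sign in both groups of cells.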

How the data were processed

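Per the submitters' processing notes, Cell Ranger, Seurat and the build hg19 were used; for versions and cell filters, nothing is given in the sources used here. For 32742 genes and 10816 cells, the authors deposited natural log values: each count was scaled to a cell total of 10000, increased by 1 and logged. Of the columns, 0 lacked a sample. UMI counts were recovered from those values: 100% were whole multiples of the cell's smallest value (tolerance 1e-06). Counts were summed over cells and given as CPM, with exact conditional intervals of ratios (95%) for genes with at least 100 UMIs over both pools; a gene counted as apart from 2-fold. A level of 0 was kept at 0 in ratios and in counts of genes apart. A floor of 3 UMIs over the pool served to bound a fold where 1 level was 0. No doublet caller was run; cells in the top 5% by UMIs were dropped as an alternative. The members, the 28 lists and 3 gene families, the 12 marker sets and the rule for named genes were chosen with earlier results of these data known. That rule took the 12 highest and 12 lowest genes of each main comparison by the interval bound nearest to 1, the 8 highest and 8 lowest against PIF1-positive cells, list ends, the most variable genes and genes chosen by name. Other genes named, the 9000 UMI split and the printed promoters were chosen after values were seen. Promoters came from RefSeq (GRCh38.p14), matched by symbol, with the first listed start. Code was tested on simulated data with Python 3.11.15, numpy 2.4.6, scipy 1.17.1, pandas 2.3.3 and matplotlib 3.10.9.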

Additional observations from a re-analysis of the deposited data

Results flagged for a closer look

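The genes here had ratios of at least 1.25-fold in opposite directions in 2 groups of cells, among 243 genes looked at; the differences were not tested. AURKB, the catalytic kinase of the chromosomal passenger complex, had a log2 ratio of domatinostat to untreated of -0.48 inside the PIF1-negative cells and 0.41 in other cells. FAM83D, a spindle protein, had -0.51 inside and 0.39 in other cells. SPC25, a subunit of the NDC80 complex, had -0.48 and 0.45, and HIST1H3C had -0.55 (49 and 106 UMIs) and 0.49. GADD45G, a stress-response gene, turned the other way, at 0.36 inside and -0.93 in other cells. Within libraries, GADD45G stood at a log2 ratio of PIF1-negative to other cells of -0.70 without treatment and 0.60 under domatinostat. The other cells were mixed differently in the libraries, as given above, and the part of this in these values was not tested.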

How the results depend on the processing

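No paired analysis was possible because each condition had 1 library, and for the same reason no library could be left out. With at least 4 of the 8 genes required, 12.3% and 7.49% of cells (untreated, domatinostat) were members and 445 genes were lower than in other cells under domatinostat; with at least 6, 8.94% and 4.60% were members. With HIST1H4C below 100 per 10000, 11.9% and 7.62% were members, 578 genes were lower without treatment, and 85 were higher and 248 lower under domatinostat. With all genes of at least 1 UMI in each pool, 787 genes were higher and 1207 lower between libraries inside the members, 1587 were higher than in other cells under domatinostat, and 1353 higher and 1682 lower without treatment. With a minimum of 500 UMIs these counts were 2 and 9 between libraries, 83 and 280 under domatinostat, and 164 and 362 without treatment. Adding a pseudocount of 0.1 per 10000 gave 3 and 13, 33 and 66, and 76 and 133. After thinning, 15 and 42 genes were apart between libraries inside the members, of which 4 and 18 were among the 31 and 75. With cells weighted to the same UMI distribution, 165 genes were higher than in other cells without treatment. Below 9000 UMIs, chosen after seeing the data, 351 genes were higher under domatinostat, 513 lower without treatment, and 11 lower between libraries inside the members. Over 1133 pairs of a gene ranked in a main comparison and an alternative, the ratio stayed within its interval in 846 and left it in 287. A turn of direction was counted only for genes at least 2-fold apart in the main setting, and there were 0. Changing the minimum of UMIs (71 pairs in each such setting) cannot move a ratio, so those pairs stayed within by construction. The comparison between libraries rests on 5482912 and 3711936 UMIs.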
